A study of Drosophila melanogaster with 12 samples.

Results

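The subject is the transcriptome of the wild-type (WT) third-instar larval central nervous system (CNS) of Drosophila melanogaster, as measured in the 6 WT libraries among the 12 RNA-seq libraries of the study. They were taken by their labels: 3 libraries are the WT control of CTCF0 mutants and 3 are the WT control of Cp190KO mutants, where CTCF and Cp190 are proteins bound at insulators. All 6 came from the strain w1118, cultured at 25°C, and each replicate pooled 60 dissected CNSs from animals that were not separated by sex. Poly(A) RNA was made into libraries with a kit that keeps the strand. The 2 controls were sequenced apart, with paired-end reads of 100 bp for the control of CTCF0 and single-end reads of 150 bp for the control of Cp190KO on another instrument, so experiment, instrument and read layout cannot be told apart in any difference between them. The authors describe all their replicates as biological. Nothing in the labels says whether replicates were separate cultures, and p-values measure only the spread between these libraries.

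The larval CNS holds dividing neuroblasts, their newborn neuron progeny, the differentiated neurons of the larval circuits, and glia that wrap them and form the blood-brain barrier. The ring gland, the endocrine organ that makes ecdysone and juvenile hormone, sits on the brain and can be dissected with it. A CNS transcriptome is therefore a mixture, and in bulk RNA a change in the number of cells of a type cannot be told apart from a change of RNA per cell.

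The libraries held 11652548 to 17935428 counts on genes in the control of CTCF0 and 16126996 to 20410398 in the control of Cp190KO. Between 9680 and 10071 genes per library had more than 3 counts, the floor used here for a gene that is not detected. This floor equals at most 0.257 CPM (a gene's counts scaled to the library's total), and it covers counting error only. Levels of different genes are compared as TPM, the same kind of scaled value corrected for each gene's exonic length. Reads that the counting assigned to no gene feature made up 9.42% to 12.98% of the reads in the control of CTCF0. In the control of Cp190KO they made up 4.62% to 8.71%, without overlap. In an exact permutation test the difference reached p = 0.1, the smallest p that 3 against 3 libraries allow. Where in the genome these reads lie was not tested. Replicate 2 of the control of CTCF0 was the shallowest library and had the highest share of such reads. Several results that rest on it, but not all, are also given without it.

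Of 17510 genes, 7925 (45.3%) were on, meaning at least 1 TPM and more than 3 counts in every library, and 6640 (37.9%) were off, meaning 3 counts or fewer in every library. The 3644 genes among them without a count in any library are not shown to be silent, only undetected at this depth. Among protein-coding genes 7705 of 13867 (55.6%) were on, against 143 of 2495 genes for noncoding RNAs (5.73%). Protein-coding genes with a given name were on more often (5325 of 7807) than those known only by a CG number (2380 of 6047). By chromosome, 61.8% of protein-coding genes on the X, 54.4% on the large autosome arms and 83.5% of the 79 on chromosome 4 were on. The genes that were on had a median of 22.8 TPM on the X and 22.6 TPM on the autosome arms, and 12.8 TPM on chromosome 4.

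The level of the genes was uneven. The 126 genes at 1000 TPM or more held 54.5% of all TPM, and the 1181 genes between 100 and 1000 TPM held 28.9%. The 4197 genes between 10 and 100 TPM held 15.2%, and the 3040 genes between 1 and 10 TPM held 1.34%. The highest gene was lncRNA:CR34335 (FBgn0267910), a noncoding RNA gene on chromosome X from 3545750 to 3546110 of dm6 on the minus strand, with a mean of 36322 TPM. It was followed by Obp44a (26205 TPM), of the odorant-binding protein family, and by RpL41 (16803 TPM), a protein of the large ribosomal subunit. The other 12 of the 15 highest genes were 9 ribosomal protein genes, the tubulin genes alphaTub84B (9420 TPM) and betaTub56D (7147 TPM), and the small heat shock protein gene Hsp23 (8990 TPM).

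Gene classes lay far apart, with class medians from 4021 TPM for ribosomal proteins down to 0 TPM. The 86 cytoplasmic ribosomal protein genes took 36.9% ± 0.62 (SD, n = 3) of all TPM in the control of CTCF0 and 37.3% ± 0.39 (SD, n = 3) in the control of Cp190KO. The 4 replication-independent histone genes (median 1187 TPM), which supply histones outside S phase, and the 31 proteasome subunits (median 538 TPM) lay below them. Glycolysis (median 326 TPM), translation factors (295 TPM) and nuclear genes of oxidative phosphorylation (231 TPM) followed. The plot of class members by level shows the whole order.

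**Figure D1:**
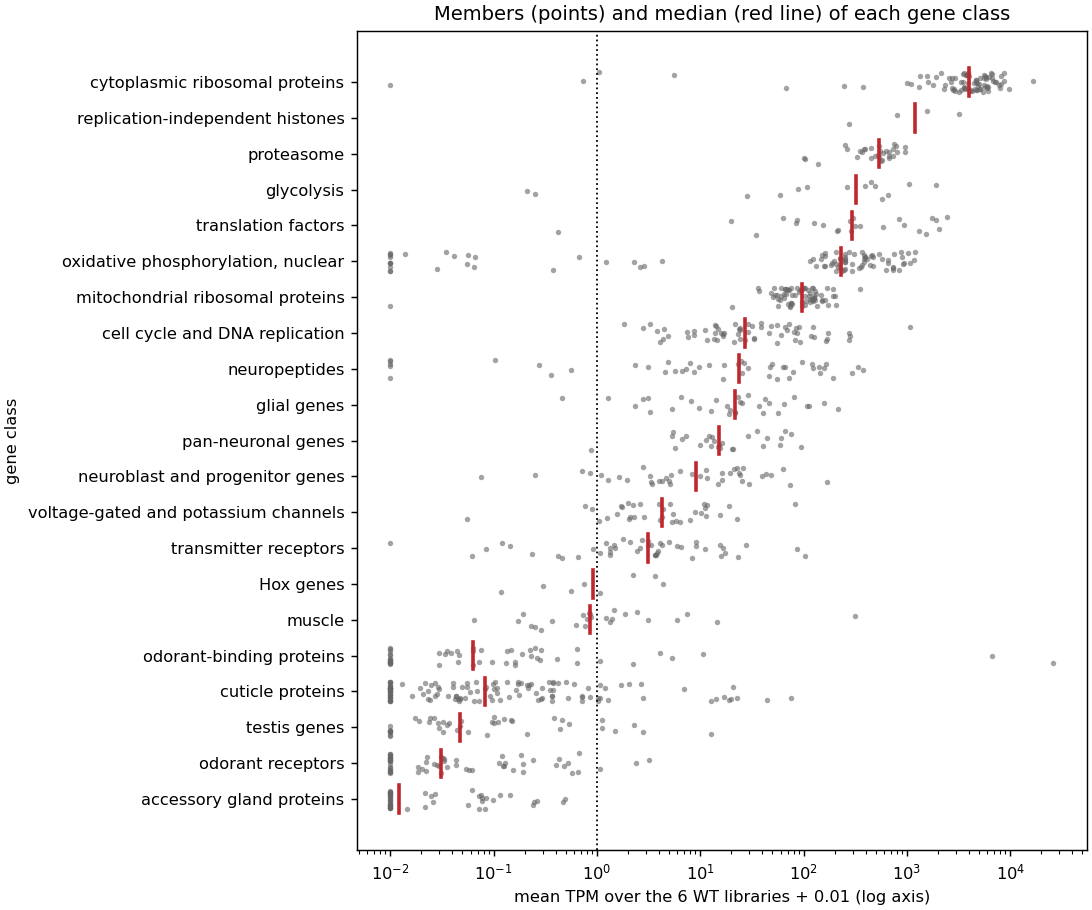
Mean TPM over the 6 WT libraries for each member (points) of 21 gene classes, with 0.01 added so that genes at 0 can be drawn on a log axis, and the class median (red line); the dotted line is 1 TPM. Ribosomal protein genes lie at a median of 4021 TPM, genes of neural cell types between 3.13 and 24.0 TPM, and most members of the odorant receptor and accessory gland classes below 1 TPM.

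Genes that define neural cell types were at a middle level and nearly all were on. Of 27 pan-neuronal genes 26 were on, with a median of 15.1 TPM, and the highest were Appl (95.3 TPM), the fly homologue of the amyloid precursor protein, and Sap47 (76.2 TPM), a synapse-associated protein. The exception was Rbp9, an RNA-binding protein of neurons, with a mean of 0.861 TPM. Of 32 glial genes 30 were on, with a median of 21.7 TPM. The cell adhesion gene wrapper (218 TPM) and the cytochrome P450 gene Cyp4g15 (159 TPM) led them, and repo, the transcription factor of nearly all lateral glia, stood at 64.6 TPM. Of 40 neuroblast and progenitor genes 33 were on, with a median of 9.17 TPM. Among them mira (168 TPM), the adaptor that carries fate determinants in a dividing neuroblast, was higher than the determinants pros (74.4 TPM) and brat (63.6 TPM) that it carries.

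Signalling genes of the CNS split by kind of product. Neuropeptide genes had a median of 24.0 TPM, and 36 of 46 were on. Ilp2 (379 TPM), an insulin-like peptide of the brain, Capa (334 TPM) and Hug (295 TPM) were the highest of them, although each is made by few neurons. Voltage-gated and potassium channel genes (median 4.28 TPM) and transmitter receptor genes (median 3.13 TPM, 32 of 47 on) lay lower. The receptors GABA-B-R2 (102 TPM) and nAChRalpha2 (86.6 TPM) stood above the other receptors, none of which reached 30 TPM. The neuromuscular glutamate receptor subunits GluRIIA, GluRIIB, GluRIIC and GluRIID had mean levels of 0.414, 0.110, 0.451 and 0.135 TPM, and none of these was on. Their fellow subunit GluRIIE was higher, and reached 1 TPM in every library of the control of CTCF0 only. It was at 1.57, 2.82 and 1.83 TPM there, against 0.903, 0.971 and 0.882 TPM in the control of Cp190KO. The test described below gave it a log2 change of -1.15 (adjusted p = 0.016).

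Genes for the synthesis and vesicular transport of transmitters were all detected, and 14 of 17 were on. VGlut, the vesicular glutamate transporter, was at 35.3, 35.2 and 33.3 TPM in replicates 1, 2 and 3 of the control of CTCF0 and at 28.1, 27.1 and 27.3 TPM in those of the control of Cp190KO. VGAT, its counterpart for GABA, was at 34.5, 29.8 and 28.2 TPM and at 35.8, 24.6 and 29.2 TPM. Neither was called by the test described below (adjusted p = 0.063 and 0.90), which does not show that they were equal. ple, the enzyme of dopamine synthesis, was the lowest of them, between 0.247 and 0.591 TPM in every library, and Trhn, the neuronal enzyme of serotonin synthesis, had a mean of 27.0 TPM.

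Genes of chemosensory organs, the male reproductive tract and the gut were mostly off. Of 60 odorant receptor genes 2 were on, of 60 gustatory receptor genes 1, and of 66 ionotropic receptor genes 2. The gustatory and ionotropic receptors that were on were Gr61a, Ir76a and Ir62a, with means of 12.1, 10.3 and 1.60 TPM. Of 46 accessory gland genes none was on, of 42 testis genes 3 were on, led by betaTub85D (12.6 TPM), and 33 of 46 midgut digestion genes were off. Cuticle protein genes were also mostly off (75 of 125). Lists of tissues that lie near the CNS were low but mostly detected, with 1 of 25 muscle genes, 1 of 14 ring gland genes, 3 of 32 imaginal disc genes, 2 of 18 hemocyte genes, 3 of 15 fat body genes, 3 of 11 glue genes and 0 of 11 tracheal genes off. Of 51 odorant-binding protein genes 5 were on, yet Obp44a and Obp99a (6635 TPM) put this class at rank 3 of all classes by its share of TPM, with 2.81% ± 0.19 (SD, n = 3) and 3.77% ± 0.16 (SD, n = 3). All 13 protein-coding genes of the mitochondrial genome had no count in any library, and the reason was not tested. Of 111 replication-dependent histone genes 100 were off. They are near-identical copies whose mRNAs lack a poly(A) tail, and their counts are uncertain.

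The genes that were on in the 2 controls were nearly the same. In all 3 libraries of the control of CTCF0 8175 genes were on, and 8083 in those of the control of Cp190KO. The 7925 shared genes made up 96.9% of the first set and 98.0% of the second. Of the 100 highest genes in each control 93 were shared, and of the 1000 highest 907. The order of 41 gene classes by median TPM was kept within 1 place for 35 of them, with the largest shift, of 5 places, for the 8 Hox genes. Between libraries, Pearson correlations of log2 CPM across genes were 0.982 to 0.993 within a control and 0.948 to 0.984 between controls. Genes are not independent, and these values describe the libraries only.

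Single genes were then compared between the controls. With edgeR's quasi-likelihood test, 8569 genes that reached 1 CPM in 3 or more libraries were tested, and a gene was called at a Benjamini-Hochberg adjusted p under 0.05 and a fold change over 1.5. The test called 1224 genes, 14.3% of those tested. Of these, 393 (4.59%) were higher and 831 (9.70%) were lower in the control of Cp190KO. The change exceeded 2-fold for 475 of the called genes and 4-fold for 39. The libraries of the 2 controls did not overlap for 3650 of all tested genes (42.6%), and for 1210 of the called ones. Between the control means, 80.5% of tested genes were within 1.5-fold and 93.5% within 2-fold, with a median absolute log2 change of 0.28. Without replicate 2 of the control of CTCF0 the test called 814 genes, and without replicate 2 of the control of Cp190KO 704. With an offset that removed each library's trend on exonic length it called 1166, of which 57.6% were lower, against 67.9% of the 1224. A fit of all 12 libraries, which pools the spread of the WT libraries with that of the mutants, called 242 genes, of which 241 were among the 1224.

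**Figure D2:**
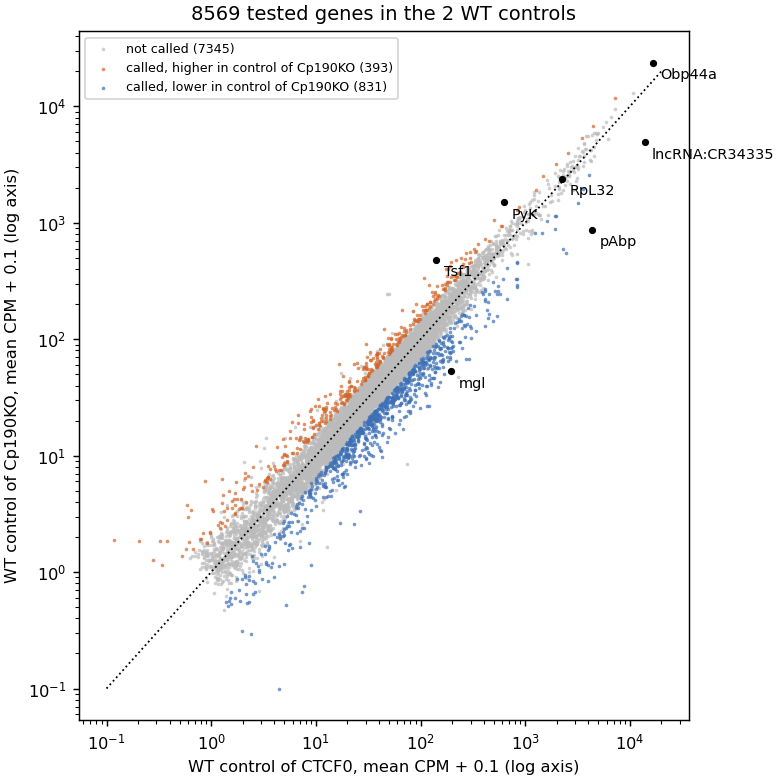
Mean CPM plus 0.1 of the 8569 tested genes in the control of CTCF0 (x) and the control of Cp190KO (y), both on log axes; 393 called genes are higher (orange) and 831 lower (blue) in the control of Cp190KO, the rest are not called (grey), and the dotted line marks equal values. Most genes lie close to the line, with lncRNA:CR34335, pAbp and mgl far below it and PyK and Tsf1 above it.

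Some genes varied little. Over the 6 libraries the median coefficient of variation of CPM was 18.2%. Of the 8569 tested genes 1231 varied by less than 10%, and 83 by less than 5%. Of 14 genes often used as qPCR references, 4 were called (28.6%, beside 14.3% of all tested genes). Gapdh1 and Gapdh2 were higher and RpS20 and Su(Tpl) lower in the control of Cp190KO. RpL32 was at 3904, 4040 and 4030 TPM in the control of CTCF0 and at 4254, 4201 and 4086 TPM in the control of Cp190KO, a log2 fold change of 0.08 (SE 0.09, adjusted p = 0.57). Cyp1, a cyclophilin (log2 change -0.10), and 14-3-3epsilon (log2 change -0.07) were likewise not called. By contrast, RpS20 was at 2831, 3455 and 2875 TPM against 1949, 1877 and 2215 TPM, without overlap, and fell by 0.59 on the log2 scale (SE 0.11, adjusted p = 0.0043). This is close to the fold threshold. With RLE scaling, DESeq2 or the offset on exonic length, 0 reference genes were called lower. The same held without replicate 2 of either control. The 2 genes that the study disrupted in other animals were not called either: CTCF was at 18.7, 19.8 and 18.7 TPM against 20.1, 13.6 and 17.6 TPM, and Cp190 at 12.2, 7.17 and 7.98 TPM against 15.9, 7.97 and 13.5 TPM (adjusted p = 0.53 and 0.23). None of the 31 proteasome genes and 3 of 71 mitochondrial ribosomal protein genes were called, the former with a median log2 change of 0.18 beside -0.01 over all tested genes, and of 0.10 without replicate 2 of the control of CTCF0. Of the 83 cytoplasmic ribosomal protein genes tested, 5 were called higher and 8 lower (15.7% called, beside 14.3% of all genes), with a median log2 change of 0.04.

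Among the genes of glycolysis, the pathway that breaks glucose down to pyruvate, most were higher in the control of Cp190KO. Of 12 tested members 7 (58.3%, beside 14.3% of all tested genes called) were called higher and none lower, with a median log2 change of 0.74. The pathway took 0.456% ± 0.068 (SD, n = 3) of TPM in the control of CTCF0 and 0.762% ± 0.097 (SD, n = 3) in the control of Cp190KO. Members called were Gapdh2, Gapdh1, PyK, Pglym78, Tpi, Pgi and Pfk. PyK, the last enzyme of the pathway, was at 424, 436 and 329 TPM against 960, 1006 and 811 TPM, the largest change among the called members, with a log2 fold change of 1.24 (SE 0.13, adjusted p = 0.00028). Pgk and Eno, with log2 changes of 0.57 and 0.58, missed the fold threshold. Ldh, the lactate dehydrogenase that makes lactate from pyruvate, ran from 23.1 to 62.6 TPM against 46.4 to 117 TPM, and its libraries overlapped (adjusted p = 0.17). Hex-A, the hexokinase at the head of the pathway, and Ald1 had log2 changes of -1.05 and -0.41 and were not called. A fit of all 12 libraries called 3 members, all higher, and without replicate 1 of the control of CTCF0 9 members were called higher and 1 lower.

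Glial genes were more often higher than lower. Of 32 tested, 8 (wrapper, Cyp4g15, bdl, Tret1-1, Indy, hoe1, CAH1 and moody) were called higher in the control of Cp190KO and 2 (htl and bnl) lower. The share called was 31.25%, beside 14.3% of all tested genes. The median log2 change was 0.24, and 0.42 without replicate 2 of the control of CTCF0. wrapper was at 192, 168 and 154 TPM against 269, 268 and 255 TPM, without overlap, with a log2 fold change of 0.64 (SE 0.12, adjusted p = 0.0035). Tret1-1, a transporter of trehalose, the blood sugar of insects, at the blood-brain barrier, was at 17.5, 17.8 and 12.4 TPM against 46.4, 27.0 and 19.6 TPM (log2 change 0.98). alrm, Nrx-IV, gcm2 and 18 other members were not called, and repo, with a log2 change of 0.47, passed the p but not the fold threshold. The count of members called higher was 4 without replicate 3 of the control of CTCF0, 4 without replicate 1 and 5 without replicate 2 of the control of Cp190KO, and 5 without scaling of the library sizes, and no member was called in the fit of all 12 libraries. Among the genes with the smallest p of all was Tsf1, which encodes the iron carrier transferrin, at 71.7, 79.2 and 59.0 TPM against 198, 219 and 288 TPM (log2 change 1.76, SE 0.15, adjusted p = 7.9e-05).

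Neuronal genes were lower where they were called. Of 27 pan-neuronal genes 9 (Sap47, fne, Nrg, elav, Fas2, CadN, Snap25, scrt and Syx1A) were called lower in the control of Cp190KO and none higher. The share called was 33.3%, beside 14.3% of all tested genes. The median log2 change was -0.49, and -0.32 without replicate 2 of the control of CTCF0. Syx1A, the syntaxin of synaptic vesicle fusion, was at 13.9, 27.1 and 16.1 TPM against 6.84, 3.36 and 5.49 TPM, a log2 fold change of -1.85 (SE 0.31, adjusted p = 0.0054). elav, the classical marker of neurons, was at 32.3, 47.2 and 33.7 TPM against 24.6, 15.3 and 20.8 TPM (log2 change -0.89). nSyb, Syt1, brp and Syn, which encode other proteins of the same vesicle and active zone machinery, were not called, with log2 changes of -0.06, -0.14, 0.14 and -0.23. Of 39 transmitter receptor genes 16 (41.0%) were called lower and none higher. Among the 16 were 5 nicotinic acetylcholine receptor subunits (nAChRalpha1, nAChRalpha3, nAChRalpha5, nAChRalpha6 and nAChRalpha7) and the GABA receptor subunits Rdl and Lcch3. VAChT, the vesicular transporter of acetylcholine, was at 109, 166 and 128 CPM against 50.8, 46.0 and 43.2 CPM (log2 change -1.52, SE 0.16, adjusted p = 0.00029). ChAT, which shares its first exon with VAChT and makes acetylcholine, was at 11.7, 26.3 and 15.3 TPM against 10.7, 10.5 and 8.21 TPM, and was not called (adjusted p = 0.057). Neuroblast and progenitor genes had 9 members lower and 1, bnb, higher of 38 (26.3% called). Without replicate 2 of the control of CTCF0 the progenitor list had 7 members lower and 0 higher. By comparison, of 63 cell cycle genes 6 (9.52%, beside 9.70% of all tested genes) were lower and none higher, with a median log2 change of 0.02. In the plot by list, the medians of the neuronal and receptor lists lie left of 0 and those of the glycolytic, muscle and cuticle lists right of it.

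**Figure D3:**
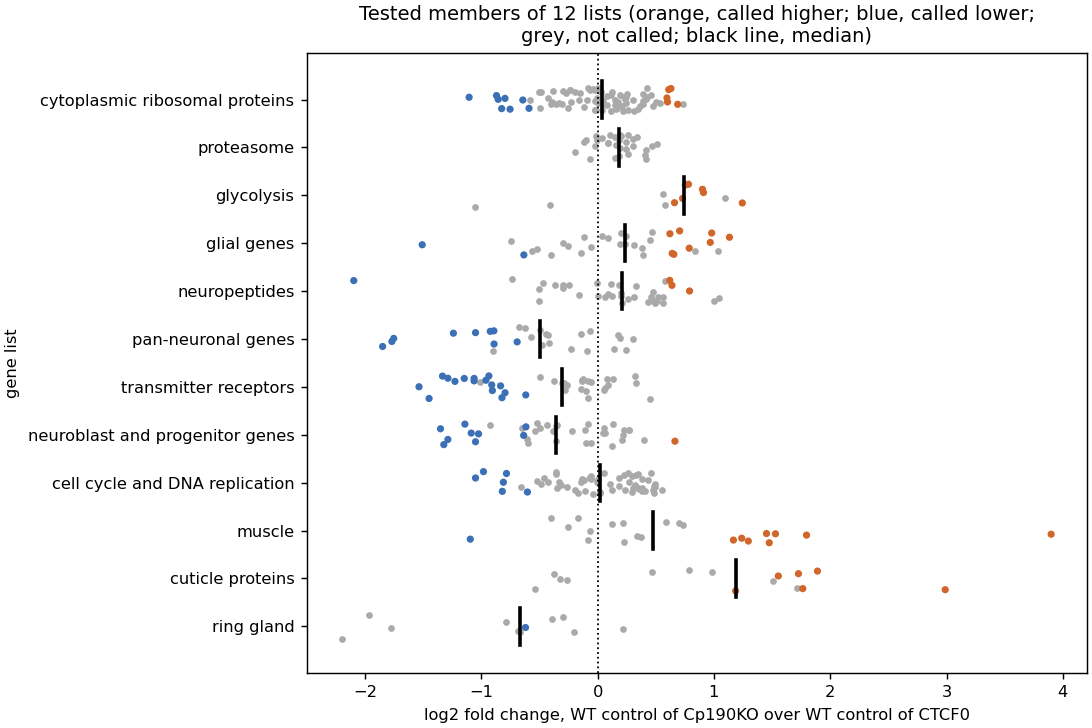
Log2 fold change of each tested member of 12 gene lists, control of Cp190KO over control of CTCF0 (x axis), with called members in orange (higher) or blue (lower), others in grey, and the list median as a black line. The median is 0.74 for glycolysis, 0.24 for glial genes, -0.49 for pan-neuronal genes and 1.19 for cuticle proteins.

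Neuronal genes in flies are known for long 3′ untranslated regions (3′ UTRs), the part of an mRNA after the stop codon, and the difference between the controls moved with the length of that region. The median of the longest annotated 3′ UTR was 346 bp over tested genes, 1248 bp over the genes called lower and 200.5 bp over those called higher in the control of Cp190KO. Of the 155 tested genes with a 3′ UTR of 4000 bp or more, 84 (54.2%, beside 14.3% of all genes) were called, 83 of them lower and 1 higher, with a median log2 change of -0.83. Of 558 genes with 2000 to 4000 bp, 190 were lower and 5 higher (34.9% called, median -0.40), and without replicate 2 of the control of CTCF0 20.6% were called (median -0.26). Of 3323 genes with less than 250 bp, 154 were lower and 212 higher (median 0.06). Among genes of 8000 bp or more of exon, 113 of 264 were lower where the 3′ UTR reached 2000 bp, against 8 of 48 where it was under 500 bp, with median log2 changes of -0.55 and -0.15, and of -0.37 and -0.10 without replicate 2 of the control of CTCF0.

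**Figure D4:**
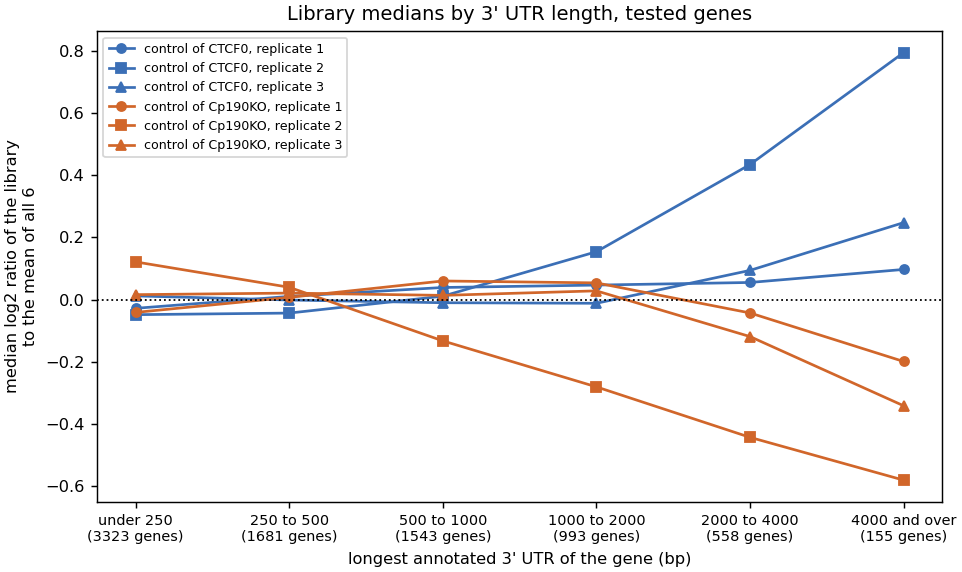
Median log2 ratio of each library to the mean of all 6 libraries (y axis) over tested genes grouped by their longest annotated 3′ UTR in bp (x axis); blue, control of CTCF0; orange, control of Cp190KO. The libraries lie within 0.17 of each other for the shortest class and spread from -0.58 to 0.79 at 4000 bp and over, where every library of the control of CTCF0 is above every library of the control of Cp190KO.

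The single libraries show the same spread. For genes with 4000 bp or more of 3′ UTR, the median log2 ratio to the mean of all libraries was 0.10, 0.79 and 0.25 in replicates 1, 2 and 3 of the control of CTCF0 and -0.20, -0.58 and -0.34 in those of the control of Cp190KO. Replicate 2 of each control thus lay farthest out, on opposite sides. Without replicate 2 of the control of CTCF0 the median log2 change of these genes was -0.53 and 44.8% of them were called. Members with known roles in neurons were fne and elav, RNA-binding proteins that themselves lengthen neuronal 3′ UTRs, the translational repressors pum (log2 change -1.66) and brat (-1.32), shep (-1.52) and Syp (-1.14). IA-2, at -1.25, was not called, and its replicate 2 of the control of CTCF0 stood apart (75.9, 239 and 120 TPM against 63.3, 57.4 and 60.4 TPM). Ggamma30A, a G protein subunit with 11333 bp of 3′ UTR, did not follow them, with a log2 change of -0.14. These examples were chosen after their values were seen.

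The length of the 3′ UTR also moved with the neuronal lists. Its median was 3466 bp in the pan-neuronal list, 2301 bp in the receptor list, 606 bp in the glial list and 303.5 bp in glycolysis. An offset that removed each library's trend on 3′ UTR length was added after the values were seen. It was fitted to these same libraries, so it draws genes with long 3′ UTRs towards no change by construction. It cannot tell apart neuronal genes and genes with long 3′ UTRs. With it the pan-neuronal list had a median log2 change of 0.03 with 5 members lower and 1 higher, and the receptor list had 5 lower and 4 higher. Glycolysis then had a median of 0.71 with 8 members higher, and the glial list a median of 0.31 with 7 higher and 2 lower. With the offset on exonic length instead, the pan-neuronal list had 7 members lower and 0 higher, with a median of -0.11. Without replicate 2 of the control of Cp190KO 5 pan-neuronal genes, 7 receptor genes and 3 progenitor genes were called lower. Without replicate 2 of the control of CTCF0 the receptor count was 8, and without replicate 3 of the control of Cp190KO it was 9. The fit of all 12 libraries called 2 pan-neuronal, 2 receptor and 0 progenitor genes lower.

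Noncoding RNAs were called more often than mRNAs. Of 170 tested genes for noncoding RNAs 48 (28.2%) were called, beside 13.9% of protein-coding genes. Of the 48, 44 were lower and 4 higher in the control of Cp190KO. Without replicate 2 of the control of CTCF0 22.7% were called, and the median log2 change was -0.26 instead of -0.37. Noncoding RNAs took 1.98% to 2.60% of all counts in the control of CTCF0 against 0.939% to 1.01%. lncRNA:CR34335 was at 47436, 60888 and 53061 TPM against 16469, 20935 and 19141 TPM, a log2 fold change of -1.50 (SE 0.12, adjusted p = 7.9e-05). lncRNA:CR43857 was at 19.6, 34.8 and 31.1 TPM against 3.90, 2.96 and 3.55 TPM (log2 change -3.02, SE 0.25). Reads from a gene and an overlapping antisense gene cannot be told apart here, since the strand setting of the counting is not given in the sources used.

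Single protein-coding genes also changed by large factors. pAbp, the cytoplasmic poly(A)-binding protein, was at 844, 1984 and 1414 TPM against 264, 313 and 259 TPM, without overlap (log2 change -2.33, SE 0.32, adjusted p = 0.0054). mgl, a lipoprotein receptor of the LDL receptor family, was at 12.9, 19.1 and 14.9 TPM against 3.98, 3.89 and 4.65 TPM (log2 change -1.89, SE 0.16). Hsp27, a small heat shock protein, was at 2221, 2840 and 3136 TPM against 1031, 1265 and 1509 TPM (log2 change -1.10, SE 0.17), while Hsp23 with a log2 change of -0.22 was not called. GstD1, a glutathione transferase of detoxification, was at 503, 484 and 482 TPM against 790, 1013 and 957 TPM (log2 change 0.92, SE 0.13), and of 58 tested detoxification genes 8 were called higher and 1 lower (15.5% called, beside 14.3% of all genes). Without replicate 3 of the control of CTCF0 or replicate 2 of the control of Cp190KO that count of higher genes was 4, without replicate 1 of the latter it was 5, without its replicate 3 it was 13, and without scaling of the library sizes it was 4.

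Some transcripts of muscle and cuticle were higher in the control of Cp190KO. Of 22 tested muscle genes 8 were called higher and 1, Mf, lower (40.9% called, beside 14.3% of all tested genes). The summed level of the whole list was 259 to 360 TPM against 397 to 441 TPM, most of it from flr, an actin regulator that is not confined to muscle. Act57B, an actin of larval muscle, was at 8.43, 7.83 and 7.36 TPM against 24.9, 18.7 and 20.5 TPM (log2 change 1.45, SE 0.18, adjusted p = 0.00054). Mhc, the muscle myosin heavy chain, was low in all libraries but was also called higher. It was at 0.673, 0.863 and 0.389 TPM against 2.90, 1.07 and 1.48 TPM (log2 change 1.53, SE 0.39, adjusted p = 0.022). Of 15 tested cuticle protein genes 6 (40.0%) were higher and none lower, with list sums of 173 to 220 TPM against 357 to 399 TPM. Lcp1, a larval cuticle protein, was at 6.31, 10.9 and 8.96 TPM against 33.5, 18.8 and 35.6 TPM (log2 change 1.76, SE 0.27). Muscle genes called higher numbered 5 without replicate 3 of the control of CTCF0, without replicate 1 or without replicate 3 of the control of Cp190KO, and cuticle genes 3 without replicate 3 of the control of Cp190KO. The fit of all 12 libraries called 3 muscle and 5 cuticle genes. Of other tissues, 2 of 4 tested midgut genes (Amy-d and Peritrophin-A) and 1 of 8 hemocyte genes (PPO3) were called higher and none lower. The median log2 changes were 0.83 for midgut and 0.78 for hemocyte genes. The share of hemocyte genes called was below the 14.3% of all tested genes, so that list was not called more often than other genes. The share of midgut genes called was above 14.3%, but rests on 4 tested genes. The summed levels of these lists did not overlap, at 6.50 to 10.3 TPM against 12.04 to 16.43 TPM for the midgut and 64.3 to 76.7 TPM against 79.1 to 96.1 TPM for hemocytes. Nor did the sums of the testis and chorion lists, and the libraries of 42.6% of all tested genes did not overlap. Without replicate 3 of the control of CTCF0 0 members of either list were called, without its replicate 2 the calls were 1 and 0, and without its replicate 1 they were 1 and 1. Without replicates 1, 2 and 3 of the control of Cp190KO in turn, 3, 1 and 1 midgut genes and 1, 2 and 2 hemocyte genes were called. Fat body genes had 0 higher and 2 lower of 9 (22.2% called), none of 10 tracheal genes was called, and the summed levels of both lists overlapped. The part of attached tissue in the other differences was not tested.

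Markers of the ring gland cut across the controls. sad, which encodes an enzyme of ecdysone synthesis, was at 58.5, 43.5 and 48.7 TPM in replicates 1, 2 and 3 of the control of CTCF0 and at 3.11, 5.85 and 85.5 TPM in those of the control of Cp190KO. Replicates 1 and 2 of the latter were thus low and its replicate 3 high, and the fit gave no call (log2 change -0.69, SE 1.35, adjusted p = 0.76). spok, an earlier enzyme of the same pathway, had 152, 84 and 84 counts against 2, 1 and 100 counts, replicates 1 and 2 of the latter within the floor. Across tested genes the ratio of CPM between the highest and the lowest library, with the lowest raised to the floor where it was under it, had within the control of Cp190KO a median of 1.31 and reached 8 for 14 genes. Among these 14 were 6 of hormone synthesis: spok (34.4), phtm (33.4), sad (26.8), GstE14 (11.8), jhamt (10.7, juvenile hormone) and dib (8.50). In the control of CTCF0 12 genes reached a ratio of 8 and none of these 6 was among them. Akh, the hormone of the neighbouring corpora cardiaca, was at 26.8, 26.1 and 28.5 TPM against 7.39, 24.0 and 34.8 TPM, low in replicate 1 of the control of Cp190KO alone. The ring gland list does not hold phtm. Of its 11 tested genes 1 was called lower in the control of Cp190KO (9.09% called, beside 14.3% of all tested genes). Without replicate 3 of the control of Cp190KO, the library that was high for sad and spok, 7 were called lower. In that fit 1069 of 8500 tested genes were called in all.

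**Figure D5:**
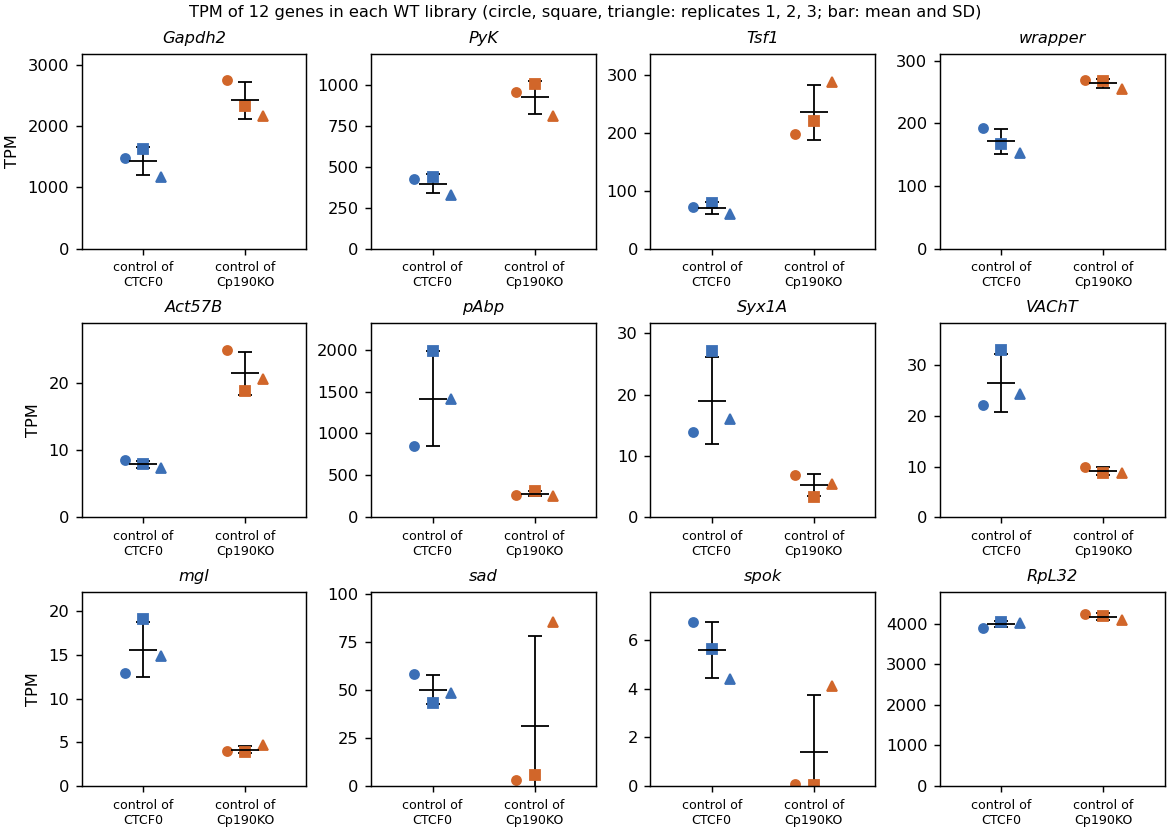
TPM (y axes from 0, linear) of 12 genes in the 3 libraries of each WT control, with replicate 1 as a circle, 2 as a square and 3 as a triangle, and a bar for the mean and SD. The glycolytic genes Gapdh2 and PyK are higher and Syx1A, VAChT, mgl and pAbp lower in the control of Cp190KO without overlap, sad and spok are low in its replicates 1 and 2 alone, and RpL32 lies between 3904 and 4254 TPM in all 6 libraries.

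Genes that respond to ecdysone were lower where they differed. Of 22 tested members of the staging list 5 (EcR, Eip75B, Hr3, Eip78C and Eip93F) were called lower in the control of Cp190KO and none higher. The share called was 22.7%, beside 14.3% of all tested genes. The list had a median log2 change of -0.47 and a median 3′ UTR of 1999.5 bp. Eip93F, a transcription factor of late larval and metamorphic stages, was at 14.2, 20.9 and 14.7 TPM against 6.81, 5.50 and 6.17 TPM (log2 change -1.42, SE 0.16, adjusted p = 0.00037). The fit of all 12 libraries called 0 members of the list, 3 were lower without replicate 3 of the control of CTCF0 and 3 without replicate 2 of the control of Cp190KO, and without replicate 1 of the control of CTCF0 1 was higher. The libraries of Eip93F did not overlap, and its 3′ UTR is 8035 bp long. EcR, the receptor itself, was at 7.14, 16.6 and 9.82 TPM against 6.41, 4.08 and 4.99 TPM (log2 change -1.10, adjusted p = 0.034). usp, its partner with a 3′ UTR of 589 bp, was not called (log2 change 0.25). The glue genes of the salivary gland were low and scattered in both controls. Sgs7 was at 29.5, 17.0 and 4.33 TPM against 71.8, 9.35 and 30.2 TPM, with overlapping libraries.

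Both noncoding RNAs of dosage compensation, which coat the male X chromosome, were lower in the control of Cp190KO. lncRNA:roX1 was at 104, 137 and 80.4 TPM against 61.4, 48.7 and 51.0 TPM (log2 change -0.98, SE 0.17, adjusted p = 0.0032), and lncRNA:roX2 at 76.4, 104 and 63.6 TPM against 29.2, 17.6 and 23.8 TPM (log2 change -1.77, SE 0.21, adjusted p = 0.00054). The protein partners msl-2, msl-1, msl-3, mle and mof were not called, with log2 changes between -0.37 and 0.04. The 1476 tested genes of the X had a median log2 change of 0.06, beside -0.01 over all genes. FDY was the 1 Y-linked gene detected, at 59.4, 53.7 and 55.1 TPM against 196, 135 and 125 TPM (log2 change 1.45). It is a near copy of an autosomal segment with vig2, and its counts are uncertain. Since sexes were mixed, the share of males in each pool was not tested.

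Few genes were on in one control and off in the other. By the rules above there were 19, of which 13 were on in the control of CTCF0 only, and 11 of the 19 were genes for small nuclear, small nucleolar or transfer RNAs or for rRNA or histone copies, whose short or repeated sequences make counts uncertain. Among the rest, Act79B, a muscle actin, had 2, 0 and 3 counts against 42, 20 and 36. CR40068 had 1, 0 and 0 counts against 30, 29 and 40, and CG14265 had 0, 0 and 0 against 13, 11 and 15. In the other direction CG4101 was at 2.02, 2.04 and 2.39 TPM in the control of CTCF0 and at 0.152, 0.184 and 0.467 TPM in the control of Cp190KO.

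Signs of the called genes were also read in the mutant libraries sequenced beside each control, which the calls did not use. Of the 1224 called genes, 1200 were tested between the Cp190KO and the CTCF0 libraries, and 1122 of these (93.5%) had the same sign as between their WT controls, against 6282 of 8443 over all genes tested in both. Of them 50 were also called there in the same direction, where 225 of 8725 genes were called in all. The 155 genes with long 3′ UTRs had a median log2 change of -0.49 between the mutants, negative for 137. Glycolytic PyK (1.03), Tsf1 (1.65), wrapper (0.62), mgl (-1.37), VAChT (-1.36) and lncRNA:CR34335 (-2.24) kept their sign between the mutants on the log2 scale. GstD1, at -0.34, did not. Genotype and experiment cannot be told apart in that comparison.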

How the data were processed

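The deposited values are counts per gene that, per the authors' methods, were made by mapping reads to dm6 with Micmap and counting them on FlyBase genes with HTSeq 0.9.1. The strand option and overlap mode are not given in the sources used here. Each file held whole numbers only, over 17510 genes. The 5 summary lines were left out of library sizes.

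Samples were grouped by their labels. TPM used the union of exons of an annotation with dm6 coordinates, which lacked 105 genes. Genes that reached 1 CPM in 3 or more of the 6 libraries were tested with edgeR 4.0.16 (TMM scaling, robust quasi-likelihood fit, two-sided, R 4.3.3), with the contrast control of Cp190KO minus control of CTCF0. A standard error is the log2 change over the square root of F. Alternatives were DESeq2 1.42.0, other scalings, filters and thresholds, a replicate block, all 12 libraries, offsets on exonic or 3′ UTR length, and each library left out. The 3′ UTR offset, the count minimum below and the comparison of the mutant libraries were added after seeing the data. The test was checked on simulated data.

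"On" was planned as 1 TPM alone. More than 3 counts were also required, since 24 very short genes reached 1 TPM in all 6 libraries with 3 counts or fewer in some. The 44 gene lists (1704 genes, 20 listed names not matched) and the members were chosen with earlier results of these data known. Named genes were the 15 highest, the 3 highest of each list, list members called in other tissues, the 12 largest rises and falls, the 5 smallest p, all members of 4 short lists, CTCF, Cp190, and genes on in one control only. Other list members were named after their values were seen, as were all genes of 3′ UTR and within-control range. The planned search of core promoters was not run, as no sequences were used here.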

Additional observations from a re-analysis of the deposited data

How the results depend on the processing

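The count of 1224 called genes stayed within 1.5 times under RLE, upper quartile or no scaling, DESeq2, 3 other filters, protein-coding library sizes, the offsets on exonic length and 3′ UTR length and a test with no fold threshold. It was 242 with all 12 libraries in the fit, 475 at a fold change over 2, 550 at an adjusted p under 0.01, and 704 to 1475 with each library left out. Called genes were lower in the control of Cp190KO for 67.9% of calls, 75.8% without scaling and 57.6% with the offset on exonic length. Replicate numbers do not pair the samples (correlations of same-numbered deviations 0.03, -0.08 and 0.05), and with a replicate block 1320 genes were called, 1189 of them among the 1224. The genes on in all 6 libraries, 7925, numbered 6035 at 5 TPM and 8412 at 0.5 TPM. The genes at or under the floor in all 6 libraries, 6640, numbered 3644 at a floor of 0 counts and 8060 at 10 counts, and do not depend on the threshold of on. The 19 genes on in one control only numbered 36 at 0.5 TPM, 5 at 5 TPM, 4 at 1 CPM and 21 to 35 with each library left out. Of 90 named genes called, 56 were called under every alternative run for them. The 1 reversal was pros, with a log2 change of 0.38, not called, under the 3′ UTR offset. Class shares moved by more than the spread of the libraries for 35 of 44 classes as CPM, 3 with the longest transcript as length and 4 over protein-coding genes only. Depth limits the weakest genes: the floor of 3 counts lay between 0.147 and 0.257 CPM by library, and off means at or under it in every library.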
